A study of Mus musculus with 4 samples.

Results

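Genes in mouse heart that had called N6-methyladenosine (m6A) peaks in both genotypes, but no called peaks that overlapped between them, are described here. They were chosen from the authors' peak lists of Wtap-CKO and Wtapflox/flox hearts as the genes, by Ensembl gene ID, that have a peak in both lists while no exonic base of any peak in 1 list is shared with any peak of that gene in the other. The choice took 383 genes of 9456 with peaks in both lists, which is 4.05% (exact 95% interval 3.66 to 4.47%), and of 12182 genes with a peak in either list. These 383 genes held 456 of 21179 Wtap-CKO peaks and 480 of 20766 Wtapflox/flox peaks. The remaining 9073 genes with peaks in both lists had at least 1 shared exonic base.

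m6A is placed on messenger RNA in the nucleus by a complex whose catalytic pair is METTL3 and METTL14, and WTAP is the adaptor that holds the pair in nuclear speckles. The mark is best known from the region around the stop codon and the last exon, with further sites in long internal exons and at transcript starts, and it bears on splicing, export, translation and decay. In MeRIP-seq, RNA fragments pulled down with an anti-m6A antibody are sequenced beside the input RNA, and a peak is a stretch of exon where the pulled-down reads exceed the input.

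The hearts came from mice 4 days old: RNA of 8 Wtap-CKO mice was pooled for that genotype, and RNA of 7 Wtapflox/flox mice, which carry the floxed allele, served as the control. A genotype was represented by 1 immunoprecipitation (IP) and 1 input library, 4 libraries in all, so differences between the lists have no replicate check and no test between genotypes exists. The promoter or Cre that drives the deletion is not stated in the labels or design text, and the titles of the knockout samples use another abbreviation than the genotype label. Peaks were called separately in each genotype, the lists hold no read totals, and the depth of each library is therefore unknown. In bulk heart RNA, fewer cells of a type and less RNA per cell cannot be told apart. All 6 cardiomyocyte and all 6 endothelial markers looked up had a peak in each list. Of 6 markers each, fibroblast and smooth muscle had 6 with a Wtap-CKO peak and 5 with a control peak, epicardial 3 and 2, immune 3 in each list, and erythroid 1 in each. Wtap itself had 4 Wtap-CKO and 3 control peaks, which does not check the deletion. Positions are 1-based on build GRCm39, as deposited. Whether a peak lies in a coding exon or an untranslated region was not analysed here, and intervals beside shares reflect counting error alone and treat genes as independent.

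The choice rests on where peaks were called, so the values that went into it are given as a description. Most of these genes had little to compare: 258 of 383 (67.4%, interval 62.4 to 72.0%) had 1 peak in each list, against 2834 of the 9073 other genes (31.2%, interval 30.3 to 32.2%). Of genes with 1 peak in each list, 8.34% had no shared base, against 1.96% of genes with more peaks. A single Wtap-CKO peak was present in 320 of the 383 genes and a single control peak in 309, with up to 4 Wtap-CKO and up to 5 control peaks in a gene.

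Their peaks were also weaker and narrower than those of the other genes in both lists. Fold here is the authors' ratio of IP over input for each peak and p and q are those of the authors' peak caller. Peaks are ranked and filtered by them within a list, and where values of both lists stand side by side they describe each call and are not read as a change, since depth is unknown. In Wtap-CKO hearts the median log10 q was -3.17 for peaks of the 383 genes and -9.04 for peaks of the other genes. In Wtapflox/flox hearts it was -4.02 for peaks of the 383 genes and -10.5 for peaks of the other genes. The median exonic width was 151 bases in Wtap-CKO hearts, against 270 for the other genes, and 180 bases in Wtapflox/flox hearts, against 299 for the other genes. Median folds lay closer together, at 7.5 for the 383 genes and 7.03 for the others in the Wtap-CKO list, and at 5.61 for the 383 genes and 7.22 for the others in the control list. The peaks of these genes thus differed from those of the other genes in both lists in q and width more than in fold. Genes with peaks in 1 list only had similar peaks. Their median log10 q was -3.25 in the Wtap-CKO list and -3.46 in the control list, with median widths of 151 and 180 bases. Weak and narrow peaks were therefore not particular to the 383 genes.

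A peak with a log10 q of -10 or less is called strong below. A strong Wtap-CKO peak was present in 27 of the 383 genes (7.05%), where 63.9% of all genes with peaks in both lists had one. A strong control peak was present in 104 (27.2%), where 68.7% of all genes with peaks in both lists had one. Because the choice of genes used these lists, nothing is read from either background share. Among the 383, 18 were strong in the Wtap-CKO list only, 95 in the control list only, 9 in both and 261 in neither. Of the 113 genes strong in 1 list, 84.1% (interval 76.0 to 90.3%) were strong in the control. Among the other genes, 710 were strong in Wtap-CKO only and 1078 in the control only, so more were strong in the control there too. The same lists chose the genes, so nothing is read from the contrast with the 383. Genotype and the unknown depth of the libraries cannot be told apart in these counts.

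**Figure D1:**
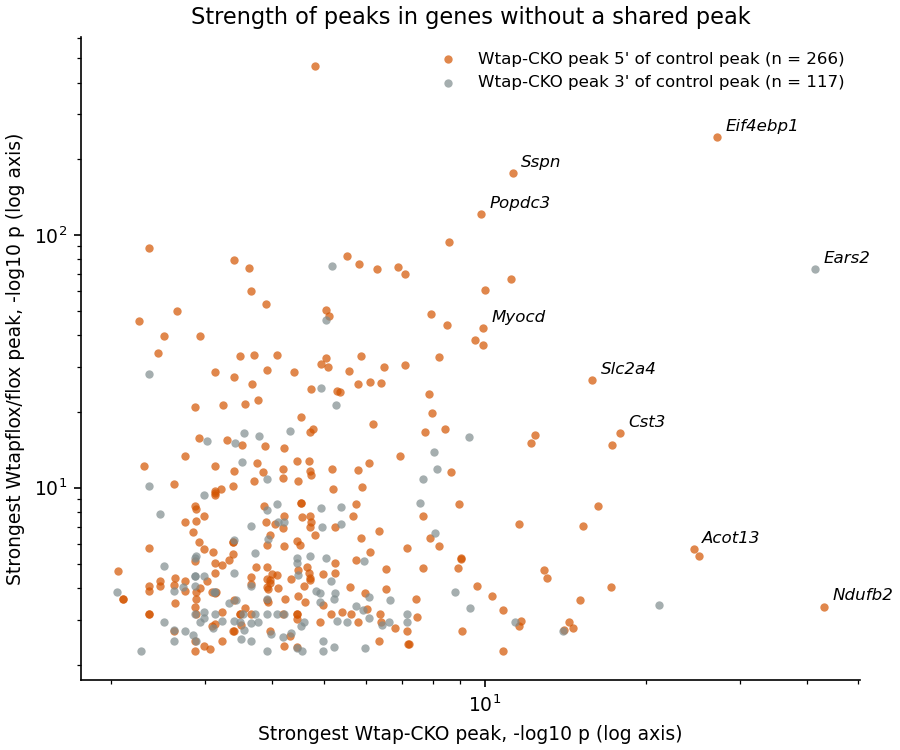
Each point is 1 of the 383 genes, with the strongest Wtap-CKO peak on the x axis and the strongest Wtapflox/flox peak on the y axis, both as -log10 p on log axes. Colour gives the side of the nearest Wtap-CKO peak, 5′ in 266 genes and 3′ in 117, and most points above 10 on the y axis belong to the 5′ group.

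The 9 genes with a strong peak in each list give the clearest cases of separate positions, and in all 9 the strongest Wtap-CKO peak lay 5′ of the strongest control peak. Eif4ebp1 (ENSMUSG00000031490, plus strand of chromosome 8) encodes a repressor of cap-dependent translation that mTOR phosphorylates. Its Wtap-CKO peak covered 268 exonic bases in 3 blocks between 27750357 and 27756147, with a fold of 6.03 and a log10 q of -25.8. Its control peak covered 506 exonic bases in 2 blocks between 27763434 and 27765516, with a fold of 3.52 and a log10 q of -241. The Wtap-CKO peak was thus 7286 bases upstream in the genome, introns included.

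Ears2 (ENSMUSG00000030871, minus strand of chromosome 7), the mitochondrial glutamyl-tRNA synthetase, had its Wtap-CKO peak at 121645897 to 121646166, with a fold of 4.90 and a log10 q of -39.9. It had 2 control peaks, the stronger at 121637873 to 121638936 with a fold of 17.9 and a log10 q of -71.3, and a weaker one at 121647364 to 121647634 with a log10 q of -6.75. The Wtap-CKO peak lay between them, 5′ of the strong control peak by 6960 bases and 3′ of the weak one by 1197 bases, so the side depends on which control peak is taken.

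Slc2a4 (ENSMUSG00000018566, minus strand of chromosome 11) encodes GLUT4, the insulin-responsive glucose transporter of heart and skeletal muscle. The Wtap-CKO peak at 69838804 to 69839014 had a fold of 6.01 and a log10 q of -14.7, and in the control list the peak spanned 69834114 to 69834354, with a fold of 2.32 and a log10 q of -25.3. They were 4449 bases apart. Sspn (ENSMUSG00000030255, plus strand of chromosome 6) encodes sarcospan, a membrane protein of the dystrophin complex, and had a narrow Wtap-CKO peak of 181 bases at 145879853 (fold 7.74, log10 q -10.1). Its control peak was 749 bases wide and started 27236 bases downstream of the end of the Wtap-CKO peak, with a fold of 7.36 and a log10 q of -173. The order along the gene was the same in Slc2a4 and Sspn.

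Cst3 (ENSMUSG00000027447), encoding the secreted cysteine protease inhibitor cystatin C, had peaks of 207 bases in each list, 3355 bases apart, with low folds of 1.67 in Wtap-CKO and 1.48 in the control. Slc30a9 (ENSMUSG00000029221), of the zinc transporter family, had peaks of 301 bases in each list, 48191 bases apart, with folds of 5.69 in Wtap-CKO and 1.99 in the control. Ppp1r11 (ENSMUSG00000036398), an inhibitor of protein phosphatase 1, had folds of 10.3 in Wtap-CKO and 2.31 in the control at peaks 1978 bases apart. Degs1 (ENSMUSG00000038633), the desaturase that makes ceramide, had folds of 3.28 in Wtap-CKO and 3.26 in the control at peaks 3373 bases apart. Hspa9 (ENSMUSG00000024359), the mitochondrial heat shock chaperone mortalin, had folds of 1.92 in Wtap-CKO and 1.63 in the control at peaks 15745 bases apart. The width of the separation in these genes therefore ran over more than an order of magnitude with the side unchanged.

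**Figure D2:**
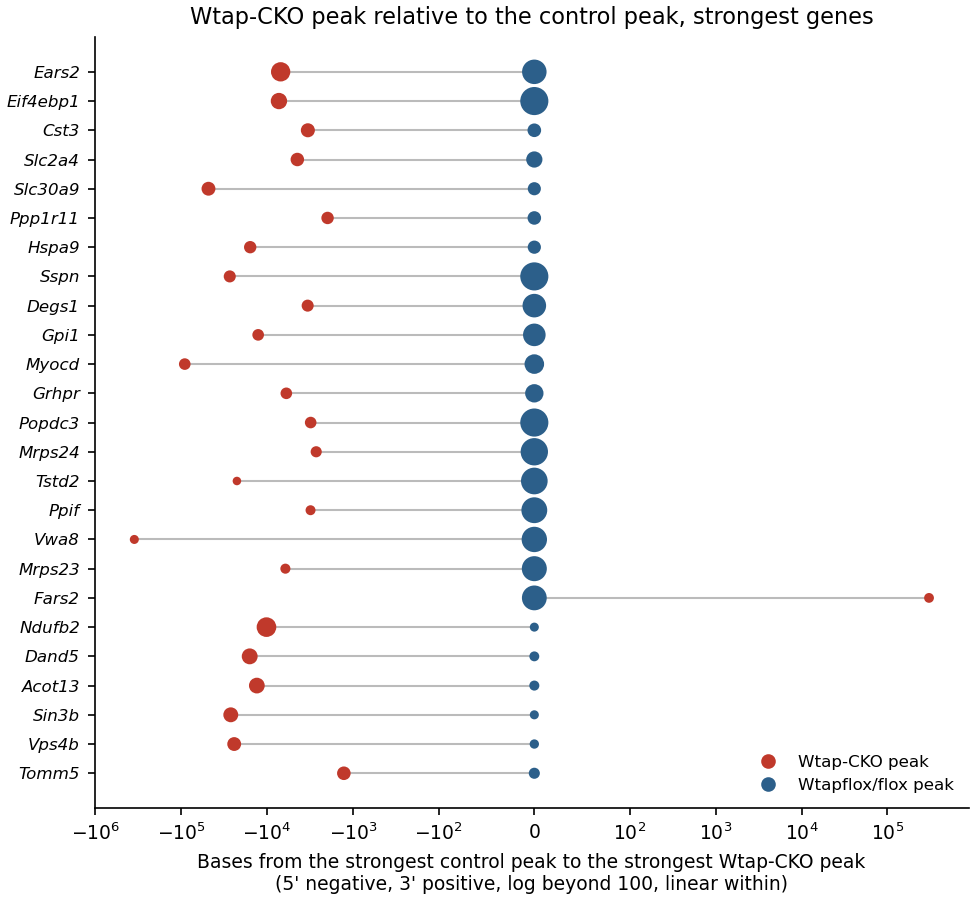
For 25 genes named by the strength of their peaks, the x axis gives the bases from the strongest Wtapflox/flox peak (blue, at 0) to the strongest Wtap-CKO peak (red), with 5′ negative and 3′ positive, on a scale that is logarithmic beyond 100 bases and linear within. Marker area grows with -log10 p, up to 100, and 24 of the 25 Wtap-CKO peaks lie on the 5′ side, with Fars2 as the exception.

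The genes with the smallest p in the control list include Eif4ebp1 and Sspn, above, and others whose Wtap-CKO peak was not strong. Popdc3, a Popeye-domain membrane protein that binds cyclic AMP, had a Wtap-CKO peak of log10 p -9.86 and control peaks of -25.5 and -121, the nearer of which started only 59 bases downstream. Ppif, the cyclophilin that regulates the mitochondrial permeability transition pore, had a log10 p of -5.52 in Wtap-CKO and -82.6 in the control, at peaks 3123 bases apart. Vwa8, a mitochondrial ATPase, had log10 p values of -3.39 and -2.94 in Wtap-CKO and -79.2 in the control, with 97543 bases between the nearest peaks. In each of these the control peak was downstream.

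The mitochondrial ribosomal proteins Mrps24 and Mrps23 had log10 p values of -8.56 and -5.81 in Wtap-CKO, against strongest values of -93.9 and -76.7 in the control, again with the stronger control peak downstream. A second control peak of Mrps24 overlapped a control peak of Urgcp on the same strand, with a log10 p of -271 for Urgcp, and its gene cannot be told apart. Tstd2, a rhodanese-domain protein, had a log10 p of -2.36 in Wtap-CKO and -88.7 in the control, but its control peak coincided with one of Tmod1 on the opposite strand at a log10 p of -88.2. Fars2, the mitochondrial phenylalanyl-tRNA synthetase, was the exception in side: its Wtap-CKO peak (log10 p -5.18) lay 305224 bases 3′ of its control peak (log10 p -75.3).

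Genes ranked by their Wtap-CKO peak alone placed that peak 5′ of the strongest control peak in all 10. Ndufb2, an accessory subunit of respiratory complex I, had a Wtap-CKO peak at 39569508 to 39569718 on chromosome 6 with a fold of 2.32 and a log10 p of -43.2, the smallest of any Wtap-CKO peak in the 383 genes. A second Wtap-CKO peak of log10 p -2.62 and the single control peak of log10 p -3.39 lay downstream. Acot13, a mitochondrial acyl-CoA thioesterase, had a log10 p of -24.6 in Wtap-CKO and -5.72 in the control, 13175 bases apart. Vps4b, the ATPase that disassembles ESCRT filaments, had -17.2 in Wtap-CKO and -4.05 in the control, 24180 bases apart. Tomm5, of the translocase of the outer mitochondrial membrane, had -16.3 in Wtap-CKO and -8.43 in the control, 1278 bases apart. In each of these a strong Wtap-CKO peak lay upstream of a control peak that was not strong.

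Sin3b, a scaffold of histone deacetylase complexes, had Wtap-CKO peaks of log10 p -21.2 and -3.23 on either side of its control peaks of -3.45 and -3.43, and the nearest pair put Wtap-CKO 3′ while the strongest pair put it 5′. Dand5, a secreted antagonist of Nodal and BMP signals, had a Wtap-CKO peak of log10 p -25.2 that overlapped a Wtap-CKO peak of Gadd45gip1 on the opposite strand with a log10 p of -58.6. In the control list, a peak of Gadd45gip1 at a log10 p of -87.3 overlapped the same Dand5 peak. The antisense partner was thus the stronger of the overlapping peaks, and the gene that the reads came from cannot be told apart for Dand5.

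The side of the Wtap-CKO peak was not used in choosing the genes and gives the main measurement. Taking the nearest pair of peaks in each gene, the Wtap-CKO peak lay 5′ of the control peak in 266 of 383 genes (69.5%, interval 64.6 to 74.0%) and 3′ in 117 (30.5%). Taking the strongest peak of each list, it was 5′ in 272 and 3′ in 111. When all pairs of peaks were read, every Wtap-CKO peak lay 5′ of every control peak in 250 genes (65.3%), 3′ in 93 (24.3%), and the order was mixed in 40 (10.4%). In the 258 genes with 1 peak in each list these readings use the same pair, and mixed order cannot occur. Of the 125 genes with more peaks, the order over all pairs was 5′ in 62 (49.6%), 3′ in 23 (18.4%) and mixed in 40 (32.0%). By the nearest pair, genes on the plus strand (66.8%) and on the minus strand (72.1%) both had the 5′ majority. So did genes with 1 peak in each list (72.9%) and those with more (62.4%).

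The 5′ share changed with the distance between the peaks. Distances ran between 28 and 1195355 bases, with a median of 3770 and quartiles of 500 and 20300. Up to 100 bases, the Wtap-CKO peak was 5′ in 16 of 36 genes (44.4%, interval 27.9 to 61.9%). Above 100 and up to 1000 bases it was 5′ in 53 of 97 (54.6%), and above 1000 and up to 3000 bases in 27 of 46 (58.7%). Neither side was clearly in the majority over these short distances, whose intervals all include equal shares. Above 3000 and up to 10000 bases the Wtap-CKO peak was 5′ in 50 of 70 genes (71.4%), above 10000 and up to 30000 bases in 64 of 72 (88.9%, interval 79.3 to 95.1%), and beyond 30000 bases in 56 of 62 (90.3%, interval 80.1 to 96.4%). Put together, it was 5′ in 69 of 133 genes up to 1000 bases (51.9%) and in 197 of 250 beyond (78.8%). The median distance was 7570 bases where the Wtap-CKO peak was 5′ and 837 bases where it was 3′.

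**Figure D3:**
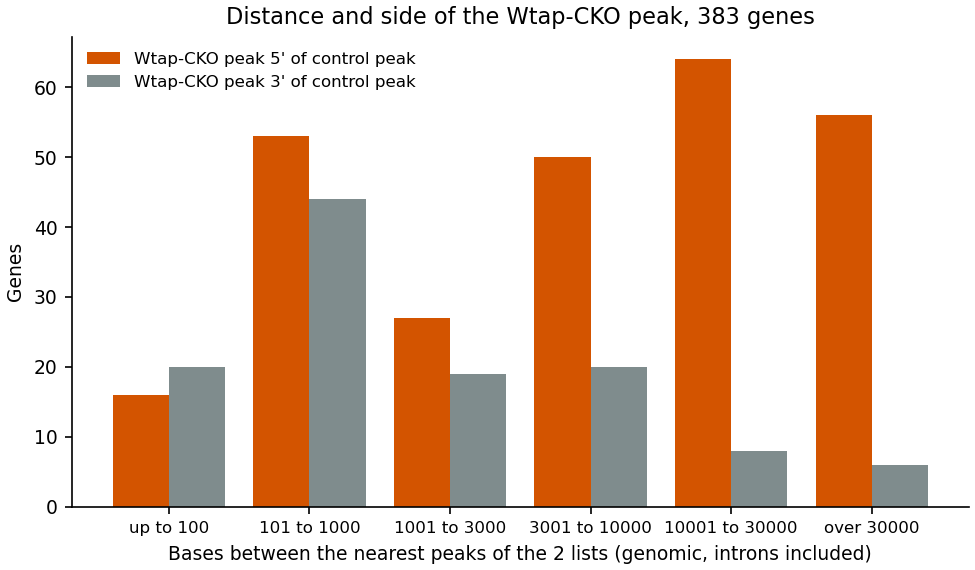
Bars count the 383 genes by the genomic distance in bases between the nearest Wtap-CKO and Wtapflox/flox peaks (x axis) and by side. Up to 100 bases 16 genes have the Wtap-CKO peak 5′ and 20 have it 3′, and beyond 30000 bases the counts are 56 and 6.

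The genes that shared at least 1 peak were measured the same way wherever they also had an unshared peak in each list, which 649 of them did. Their unshared Wtap-CKO peak was 5′ of the unshared control peak in 63.2% (interval 59.3 to 66.9%), against 69.5% in the 383 genes. Up to 1000 bases the 383 genes had 51.9% and the others 52.4%. Beyond 10000 bases the Wtap-CKO peak was 5′ in 120 of 134 genes without a shared peak (89.6%, interval 83.1 to 94.2%), against 163 of 215 of the others (75.8%, interval 69.5 to 81.4%). The 5′ majority at long distance was thus present in both sets, and of these 3 comparisons only the one beyond 10000 bases had intervals that did not overlap. Split at 30000 bases, that range had overlapping intervals in both parts. They were 79.3 to 95.1% against 68.3 to 84.7% up to 30000 bases, and 80.1 to 96.4% against 64.8 to 82.3% beyond. The difference was not tested.

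**Figure D4:**
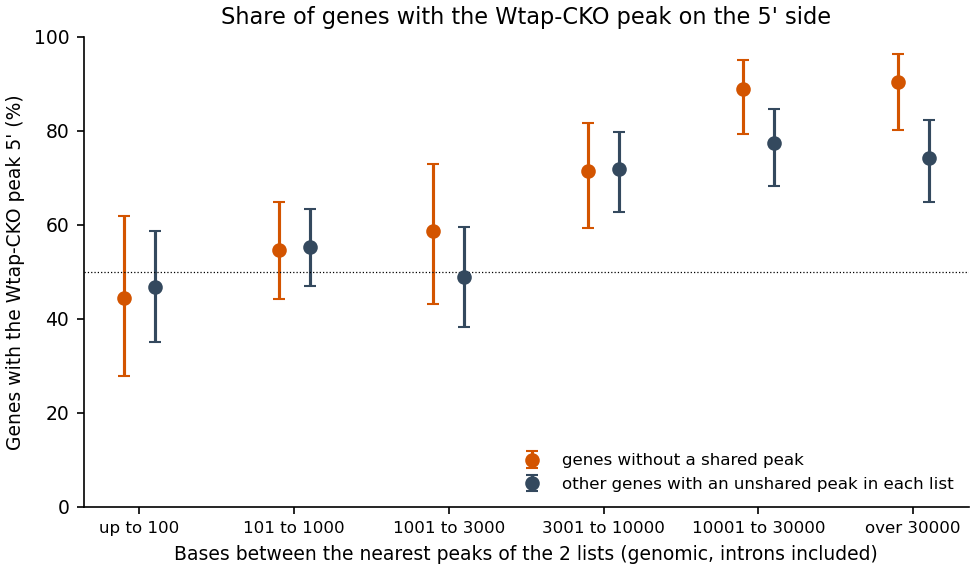
Points give the share of genes with the Wtap-CKO peak 5′ of the control peak, in percent, by genomic distance in bases, for the 383 genes without a shared peak (orange) and for 649 other genes with an unshared peak in each list (dark blue), with exact 95% intervals as bars and equal shares dotted. Beyond 30000 bases the shares are 90.3% and 74.3%, with overlapping intervals.

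Peak strength moved with the side, and its part in the result was not tested. For the comparisons between lists, side is that of the nearest pair. Strength and p are those of the strongest peak in each list, which can be another peak. Among the 104 genes with a strong control peak the Wtap-CKO peak was 5′ in 89 (85.6%), and among the 279 without one in 177 (63.4%). Among the 27 genes with a strong Wtap-CKO peak it was 5′ in 23 (85.2%), and among the 261 strong in neither list in 162 (62.1%). It was 5′ in 15 of the 18 genes strong in Wtap-CKO only (83.3%) and in 81 of the 95 strong in the control only (85.3%). Within a single list the weaker of 2 peaks tended to lie upstream as well: it was 5′ of the stronger in 57.7% of 3119 genes with 2 Wtap-CKO peaks and in 62.0% of 2996 genes with 2 control peaks. Beyond 1000 bases these shares were 60.6% and 67.0%. The 78.8% with Wtap-CKO 5′ among the 383 genes at that distance is another measure, since it sorts peaks by list and not by strength. Among the 383, the nearest Wtap-CKO peak was 5′ in 87 of 143 genes whose smallest p was in the Wtap-CKO list (60.8%). Where the control p was smaller or equal, it was 5′ in 179 of 240 (74.6%). Beyond 1000 bases these shares were 68.4% and 83.3%. The same split by the unshared peaks of the 649 other genes, at all distances, gave 151 of 269 (56.1%) and 259 of 380 (68.2%). The Wtap-CKO peak was thus upstream in most genes strong in either list, and by a smaller majority where it had the smaller p.

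Block structure differed with the side too. Side went with distance, at medians of 7570 bases for 5′ and 837 for 3′, and the block shares were not split by distance. Peaks called over more than 1 exonic block made up 68 of 266 nearest Wtap-CKO peaks that lay 5′ (25.6%, interval 20.4 to 31.2%), against 8 of 117 that lay 3′ (6.84%, interval 3.0 to 13.0%). The control peaks of the same genes had 30 of 266 (11.3%) and 17 of 117 (14.5%). A peak of several blocks crosses at least 1 splice junction, as in Eif4ebp1, Cxadr and Kat8. In no gene did an intron of 1 peak enclose the nearest peak of the other list (0 of 383), and comparing whole spans gave the same 383 genes. The way peaks are called along exons may fix this in advance, so nothing is read from it.

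At the edge of the choice, the predicted genes Gm18705 and Gm10849 had peaks 28 bases apart, and BC037032, Ccdc3, Dand5, Lrg1 and Msr1 were among the genes with peaks 29 bases apart. Just outside it, Arpc3, Cspg5, Eif2ak4, Fam118b and Flad1 shared 1 exonic base between the lists and were left out. Flad1, for instance, had a Wtap-CKO peak of log10 p -3.84 and a control peak of log10 p -2.75 at that base, values like those just inside. At the other end, Prkg1, the cyclic GMP-dependent kinase, had peaks 1195355 bases apart, with log10 p values of -3.13 in Wtap-CKO and -4.58 in the control. Cdh13, a membrane-anchored cadherin, had them 1009055 bases apart, at -6.49 in Wtap-CKO and -30.1 in the control. Cacna2d1, an auxiliary subunit of voltage-gated calcium channels, had them 435711 bases apart, at -9.61 in Wtap-CKO and -38.3 in the control. Ppm1h, a protein phosphatase, had them 262234 bases apart, at -4.45 in Wtap-CKO and -3.17 in the control. In these 4 the Wtap-CKO peak was 5′, and in Fars2, the remaining member of the 5 widest, 3′.

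The genes with most peaks were Mapt and Prox1, and among those with the next highest number, taken by symbol, were Cacna1a, Chml and Fyb. Mapt, the microtubule protein tau, had 1 Wtap-CKO peak of log10 p -2.62 and 5 control peaks of up to -10.3, all of them downstream. Prox1, a homeobox factor of lymphatic endothelium and heart muscle, had 1 Wtap-CKO peak of -6.10 and 5 control peaks of up to -26.3, again all downstream. Cacna1a, a neuronal calcium channel pore, had 4 Wtap-CKO peaks and 1 control peak 149 bases downstream of the nearest. Fyb, an adaptor of haematopoietic cells, also had 4 Wtap-CKO and 1 control peak, and Chml, a Rab escort protein, had 3 Wtap-CKO and 2 control peaks, both in mixed order. A Wtap-CKO peak of each overlapped same-strand peaks of other genes, Gm7666 at Fyb and Opn3 at Chml.

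Read by function, the 383 genes were spread widely: of 41 lists and symbol families looked up, 27 held at least 1 of them and 14 none, and 269 of the 383 were on no list. All counts that follow are of genes with peaks in both lists and stand beside the 4.05% over all such genes. No list was tested. Among cardiac transcription factors, 3 of 19 had no shared peak (15.8%, interval 3.38 to 39.6%), and in all 3 the Wtap-CKO peak was 5′. Myocd, the myocardin coactivator of SRF, had a Wtap-CKO peak of log10 p -9.93 and fold 3.50, against 3 control peaks of -42.9, -9.43 and -5.89 that started 82262 bases downstream. Mef2a, the MADS-box factor of muscle genes, had a Wtap-CKO peak of -2.51 and a control peak of -39.9, 137530 bases apart. That control peak of Mef2a overlapped one of Lysmd4 on the opposite strand at a log10 p of -28.3, so its gene cannot be told apart. Prox1 is described above.

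Of the m6A machinery, 1 of 17 genes had no shared peak. This was Mettl14, the partner of METTL3 that helps bind the substrate RNA. Its Wtap-CKO peak at 123179428 to 123179607 on chromosome 3 (minus strand) had a fold of 5.94 and a log10 q of -4.97, and the peak of the control, at 123162993 to 123163232, had a fold of 4.93 and a log10 q of -9.10. The Wtap-CKO peak was 16195 bases upstream, and neither peak was strong.

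Of 43 sarcomere and Z-disc genes 0 lacked a shared peak (upper exact limit 8.22%), and of 22 ion channel and conduction genes 0 (upper limit 15.4%). Both limits lie above the 4.05% over all genes. The intercalated disc list held 2 of 18. Vcl, the vinculin that ties actin to adherens junctions, had a Wtap-CKO peak of log10 p -5.10 and control peaks of -5.04 and -30.0, both downstream, but the stronger control peak overlapped one of Ap3m1 on the opposite strand at -29.6. Cxadr, the coxsackievirus and adenovirus receptor of cell junctions, had -3.32 in Wtap-CKO and -5.16 in the control, with Wtap-CKO 5′. Calcium handling held 2 of 25: Cacna2d1, above, and Camk2b, a calmodulin-dependent kinase subunit whose Wtap-CKO peak (-2.99) lay 119 bases 3′ of its control peak (-3.05).

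Glycolysis and glucose uptake held 2 of 16 (interval 1.55 to 38.3%), Slc2a4 and Gpi1. Gpi1, the phosphoglucose isomerase, had a Wtap-CKO peak of fold 5.27 and log10 q -8.98 and a control peak of fold 1.66 and log10 q -58.7, 12718 bases downstream. Fatty acid oxidation held 2 of 23 (interval 1.07 to 28.0%), and both intervals include the share over all genes. Ppargc1a, the coactivator of mitochondrial biogenesis, had a Wtap-CKO peak of -2.26 at a fold of 1.92 and control peaks of -45.7 and -43.9 at folds of 5.54 and 8.79, both downstream. Eci2, an enoyl-CoA isomerase, had -5.29 in Wtap-CKO and -2.96 in the control, with the Wtap-CKO peak 13686 bases 3′. Ppargc1a was thus a case of 2 strong control peaks with only a weak Wtap-CKO call upstream.

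Mitochondrial ribosomal proteins held 5 of 48 (10.4%, interval 3.47 to 22.7%), namely Mrps24, Mrps23, Mrpl58, Mrps9 and Mrpl3, with the Wtap-CKO peak 5′ in 4 of the 5. Mrpl58 had a log10 p of -7.10 in Wtap-CKO and -30.6 in the control, 6336 bases apart. The interval includes the share over all genes. Oxidative phosphorylation held 2 of 48, Ndufb2 and Ndufaf5, and cytosolic ribosomal proteins 0 of 18. The Ndufaf5 peaks were 303 bases apart, at -7.43 in Wtap-CKO and -3.63 in the control. Solute carriers held 10 of 134 (7.46%), 8 of them with Wtap-CKO 5′. Slc38a1, a glutamine transporter, had -2.94 in Wtap-CKO and -39.7 in the control, 65919 bases apart. Slc25a42, a mitochondrial coenzyme A carrier, had 2 Wtap-CKO peaks, the stronger at -5.05, on either side of a control peak of -46.1.

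Cadherins and protocadherins held 6 of 41 (14.6%, interval 5.57 to 29.2%), the largest share among lists with at least 20 genes. The 19 cardiac transcription factors, just under that size, had a larger share (15.8%). In the 5 protocadherins the Wtap-CKO peak was 3′, at distances of 238 to 868 bases, and of all 133 genes up to 1000 bases apart 48.1% had it 3′. Pcdhb5 and Pcdhgb1, of the clustered protocadherins, had Wtap-CKO peaks of -5.26 and -2.51 with the nearest control peak 868 and 418 bases upstream. In each list a peak of Pcdhgb1 overlapped one of Pcdhga4 on the same strand. Clustered protocadherins resemble each other in sequence, and the sources used here do not say how reads were assigned to such copies. Cdh13 was the 1 of the 6 with Wtap-CKO 5′.

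**Figure D5:**
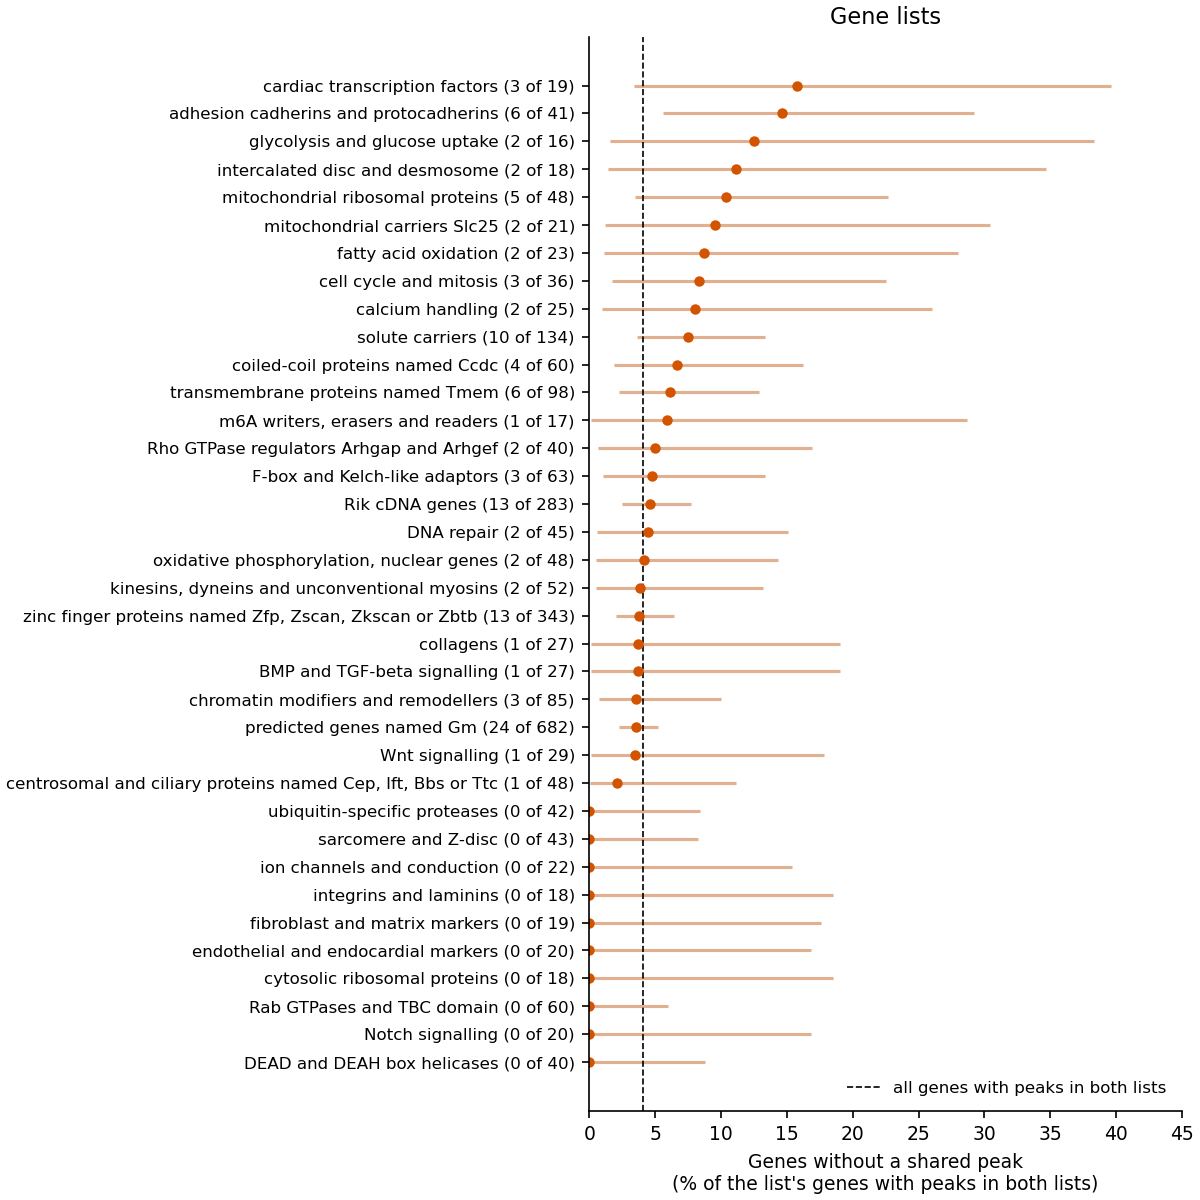
For gene lists and symbol families with at least 15 genes in both lists, points give the share of genes without a shared peak in percent and bars the exact 95% interval, with the numbers beside each name. The dashed line is the 4.05% over all genes with peaks in both lists, and the intervals of all but 1 list, the cadherins and protocadherins, include it.

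The cell cycle list held 3 of 36. Cdkn2d, an inhibitor of cyclin D kinases, had a log10 p of -6.39 in Wtap-CKO and -26.0 in the control, 1779 bases apart. Mad2l1, of the spindle checkpoint, had -4.91 in Wtap-CKO and -2.94 in the control. E2f7, a repressor of the E2F family, had its stronger Wtap-CKO peak at -2.89 and its control peak at -2.48, and there Wtap-CKO was 3′. Chromatin modifiers held 3 of 85, Kat8, Setdb2 and Setd7, and the histone acetyltransferase gene Kat8 had a log10 p of -11.7 in Wtap-CKO and -2.96 in the control. DNA repair held 2 of 45, Mlh3 and Polq. Of signalling lists, Wnt held 1 of 29 (Sfrp5, a secreted Wnt inhibitor), BMP and TGF-beta 1 of 27 (Ltbp3, a TGF-beta binding protein of the matrix), and Notch 0 of 20.

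Lists of other heart cell types held 0 of 19 fibroblast, 0 of 20 endothelial, 0 of 11 smooth muscle, 0 of 2 epicardial and 0 of 3 erythroid genes, with upper exact limits of 16.8% or more. The immune list held 1 of 7, the lysosomal Laptm5, whose Wtap-CKO peak (log10 p -4.56) lay 19073 bases 3′ of its control peak (-2.26). Zinc finger proteins held 13 of 343 (3.79%), ubiquitin-specific proteases 0 of 42, Rab and TBC genes 0 of 60 and DEAD and DEAH box helicases 0 of 40. Predicted genes named Gm made up 24 of the 383 (6.27%) and Rik cDNA genes 13 (3.39%), against 7.25% and 2.98% of the other genes. By chromosome, genes without a shared peak made up between 2.19% on chromosome 15 and 5.83% on chromosome 19 of those with peaks in both lists, leaving out chromosomes and scaffolds with 2 such genes or fewer.

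Overlapping genes touched 70 of the 383 (18.3%), in which some peak overlapped a peak of another gene in either list on either strand. In the same list, 42 of 456 Wtap-CKO peaks (9.21%) and 29 of 480 control peaks (6.04%) overlapped one on the opposite strand, and 17 in each list overlapped one on the same strand. Across lists on the same strand, a peak called to another gene overlapped a peak of Gm42878 (Mapkapk5), Gm49396 (Igflr1) and Gm20422 (Zfp866), so in these 3 at least part of the position was called in both genotypes under different gene names. Across lists on the opposite strand, 6 Wtap-CKO and 4 control peaks overlapped a peak of another gene. Without genes that had an overlap across lists on either strand, 371 of the 383 were left. Without the 70 genes the Wtap-CKO peak lay 3′ in 95 of 313 (30.4%), where all 383 gave 30.5%.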

How the data were processed

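MeRIP-seq of hearts from 4-day-old mice gave 1 IP and 1 input library per genotype. RNA (300 µg, per the labels' protocols) was pooled over 8 Wtap-CKO and over 7 Wtapflox/flox mice, fragmented to about 100 nt, incubated with antibody for 2 h and read as pairs of 150 bases. Per the series' design text, the authors' peak caller was exomePeak 2.16.0, run on the IP of a genotype with its input as background and a q limit of 0.05. Build GRCm39 and the tools HOMER 4.9.1, BWA 0.7.12 and fastp 0.19.11 come from the submitters' processing notes, which give no roles. The deposited lists give exonic blocks with a p-value, log10 p and log10 q, treated as a score because some are minus infinity, and a fold, which is the authors' ratio of IP over input. Depth is unknown.

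Overlaps, distances and sides were computed with pandas 2.3.3, numpy 2.4.6 and scipy 1.17.1 in Python 3.11.15, and matplotlib 3.10.9 drew the figures. The code was tested on simulated data with 1 peak per gene in each list, so the choice among several peaks was not tested. Shares have exact (Clopper-Pearson) 95% intervals. Distances are between nearest exonic blocks in the genome. The genes, lists and rules were chosen with earlier results of these data known. Named were the 12 genes strongest in both lists, the 10 strongest in each, the 5 with shortest and with longest distance, the 5 with most peaks, and up to 3 of each list; others named stand in a count or share a position. Alternatives were q and fold limits, other overlap rules, equal list lengths and other pairings. No sequence of the peaks was read. Results for 1 gene are not reported here.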

Additional observations from a re-analysis of the deposited data

How the results depend on the processing

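With 1 library pair per genotype no setting could be tested between genotypes. No paired analysis was possible because each genotype had 1 pooled library pair and no replicate numbers. The count of 383 genes stayed within 1.5 times under 11 of 12 alternatives (260 to 478), but the genes turned over: 165 of the 383 were among the 260 at log10 q of -3 or less, and 211 among the 462 at a fold of at least 4. It was 127 when only peaks of log10 q -10 or less were used, and only 9 of the 383 were among them, since a gene then counts by its strong peaks alone. The Wtap-CKO peak lay 3′ in 30.5% of genes, and in 23.1% at log10 q of -3 or less and 21.2% at distances of at least 1000 bases; in 8 other settings, of which leaving out overlapping genes was added after seeing the data, the share was within the counting interval of 30.5%. Of genes strong in 1 list, 84.1% were strong in the control, and 71.1% or 95.2% when strong meant a log10 q of -5 or less or -20 or less. Genes with 1 peak in each list were 67.4%, and 73.8% at log10 q of -3 or less. The cause was not tested.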

Other observations

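Genes whose description in the files names mitochondria, a set chosen after the values were seen, made up 14 of 162 with peaks in both lists (8.64%, exact interval 4.81 to 14.1%), beside 4.05% over all genes. Besides Ears2, Fars2, Tomm5 and the 5 mitochondrial ribosomal proteins they were Immt, Atpaf2, Timm17a, Sod2, Tcaim and Shmt2. The Wtap-CKO peak was 5′ in 9 and 3′ in 5. No test of this set was made.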
